A study of Mus musculus with 2 samples.

Results

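The cadherins and protocadherins are a family of calcium-dependent adhesion proteins, and their transcripts were followed in embryonic mouse ureters cultured with NOGGIN or without it. The family was picked with earlier results of these data known, and its members were then taken by name alone: every gene probe on the array whose transcript accession carries a symbol of the form Cdh or Pcdh followed by a number or letters. These were 91 of 39408 gene probes and 70 of 32089 genes, of which 23 were cadherins and 47 protocadherins. A gene was tested when a probe stood above background in at least 1 condition on both arrays, and 62 of the 70 did so (20 cadherins and 42 protocadherins, of 21316 genes tested in all). The 8 members that did not were Cdh7, Cdh17, Cdh23, Pcdha11, Pcdhac1, Pcdhb1, Pcdhga10 and Pcdhgc5.

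NOGGIN is an extracellular antagonist of bone morphogenetic protein (BMP) signalling, which it blocks by trapping the ligands. The treated ureters were kept for 18 h with 10 µg/ml NOGGIN and the control ureters for 18 h in the same way without it. All came from wildtype NMRI embryos at E12.5, of mixed sex, and were dissected out and grown on transwell membranes. Each of 2 arrays held 1 treated and 1 control RNA in different dyes, with the dyes exchanged on the second array. The labels do not say whether the replicates came from separate litters or cultures, nor how many ureters were pooled, so the tests measure the spread between these 2 arrays, which may be technical. On the arrays 73.9% and 68.3% of gene spots were well above background in the NOGGIN-labelled channel, and 67.3% and 74.3% in the control-labelled channel, and no gene spot was saturated. Both arrays lay on 1 slide with 1 scan time. The precision is limited by there being 2 arrays.

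Classical cadherins join neighbouring cells by pairing with like cadherins on the next cell, and catenins tie their tails to actin. Type I members such as E-, N-, P- and R-cadherin and the type II members differ in their binding domain and mark different tissues: E-cadherin epithelia, N-cadherin and cadherin-11 mesenchyme, VE-cadherin endothelium. Protocadherins adhere more weakly and act in cell sorting and recognition. In mouse, the non-clustered (mostly delta) protocadherins lie singly in the genome and the alpha, beta and gamma protocadherins in tandem clusters on chromosome 18. In the ureter, E-cadherin marks the epithelial tube, which is wrapped by mesenchyme that forms smooth muscle.

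Values are given as log2 intensities of each channel after normalisation, and the log2 ratio is the NOGGIN-labelled over the control-labelled channel, each condition being taken from the dye that the labels assign to it. The authors' deposited table of signed fold changes has the opposite sign: across genes its log2 values ran against these ratios with r = -0.96 on both arrays. Id1, a direct target gene of BMP signalling, had 13.42 and 13.57 in the NOGGIN-labelled channel, against 11.88 and 11.15 in the control-labelled channel. The authors' deposited table lists it at -2.82-fold and -5.67-fold on replicates 1 and 2. Which direction is right is not settled by these sources. Groups are therefore called by their channel labels, and turning the sign would exchange "higher" and "lower" for every gene while leaving the sizes as they are.

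In limma, 9 of the 62 members (14.5%) had an adjusted p under 0.05, beside 7.99% of all tested genes. In the NOGGIN-labelled channel 5 members (8.06%) were higher, beside 3.95% of all genes, and 4 (6.45%) were lower, beside 4.04%. The higher members were the type II cadherin Cdh18 and the protocadherins Pcdh9, Pcdhac2, Pcdh10 and Pcdh11x. The lower ones were the type I cadherins Cdh3, Cdh15 and Cdh4 and the protocadherin Pcdh8. At an unadjusted p under 0.05 limma had 17 of the 62 members, beside 4954 of all 21316 genes. That share is the background for the unadjusted counts of other lists from this fit. The shares of 7.99%, 3.95% and 4.04% are likewise the background for calls in subgroups and other lists. A change of at least 1.5-fold in 1 direction on both arrays was seen for Cdh3, Cdh18, Pcdh9 and Pcdhac2, which is 6.45% of members, beside 2.90% of all genes. That count of 4 became 2 with the mean of a gene's probes. Without replicate 1 it was 7, but there the criterion asks for the change on 1 array only and is looser. The 2.90% belongs to the main setting. The channel values of the conditions did not overlap for 32 members (51.6%), a share near the 51.3% of all genes. When the arrays were centred on their medians in place of the intensity-dependent loess correction, limma passed 0 members and 0 of all genes at the threshold. At an unadjusted p under 0.05 it then had 14 members, the 9 among them in the same direction as before, and 3568 genes. With a trended, robust variance Cdh18, Pcdh9, Pcdhac2 and Cdh3 passed, and the other 5 had adjusted p-values from 0.0502 for Pcdh10 to 0.0772 for Cdh4.

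**Figure D1:**
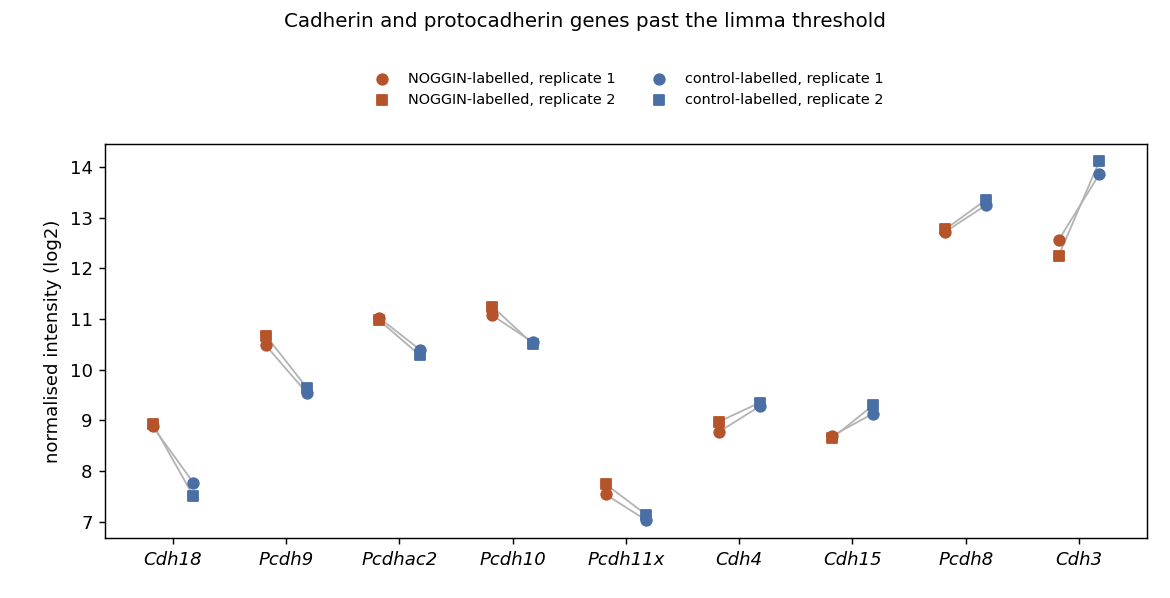
Normalised log2 intensity (vertical axis) of the 9 members past the threshold, with the NOGGIN-labelled channel left of the control-labelled channel and 1 line per array. The lines run the same way on both arrays for each gene, with the widest gap at Cdh3 and the next at Cdh18.

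Among the type I classical cadherins all 5 were measured, and 3 of them were lower in the NOGGIN-labelled channel, beside 4.04% of all genes. Cdh3, which encodes P-cadherin of basal epithelial cells and lies on chromosome 8, had 12.55 and 12.24 in the NOGGIN-labelled channel of replicates 1 and 2, against 13.86 and 14.11 in the control-labelled channel. Both NOGGIN-labelled values lay well below both control-labelled ones. Its log2 ratio was -1.59 ± 0.40 (SD, n = 2 arrays), a 3.0-fold difference, with a limma adjusted p of 0.00746. The authors' deposited table gives Cdh3 as 2.50-fold and 3.67-fold, with the sign the other way.

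Cdh15 encodes M-cadherin, known from skeletal muscle precursors, and Cdh4 encodes R-cadherin, first known from retina. Cdh15 had 8.69 and 8.65 in the NOGGIN-labelled channel, against 9.13 and 9.29 in the control-labelled channel. The log2 ratio of Cdh15 was -0.54 ± 0.15 (adjusted p = 0.0273). Cdh4 had 8.77 and 8.97 in the NOGGIN-labelled channel, against 9.28 and 9.35 in the control-labelled channel. Neither gene's channels overlapped. The log2 ratio of Cdh4 was -0.44 ± 0.09, with an adjusted p of 0.0355 that became 0.0503 on the authors' deposited values.

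The other type I cadherins carry the main epithelial and mesenchymal junctions. Cdh1, E-cadherin, had 14.48 and 14.38 in the NOGGIN-labelled channel and 14.39 and 14.51 in the control-labelled channel, so the channels overlapped. Its log2 ratio was -0.02 ± 0.16, with a 95% confidence interval of -0.24 to 0.20 (adjusted p = 0.936). Cdh1 and Cdh3 are next to each other on chromosome 8, with 0 protein-coding genes between them in RefSeq. The interval of Cdh3, -1.95 to -1.22, lay wholly below that of its neighbour, although the difference between the genes was not itself tested. Cdh2, N-cadherin, had 14.23 and 14.37 in the NOGGIN-labelled channel and 14.28 and 14.48 in the control-labelled channel, which also overlapped, and its interval was -0.27 to 0.11 (adjusted p = 0.594).

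Epithelial markers stood beside these values as follows. Of 8 epithelial genes measured, 6 did not pass the test, among them Epcam at a log2 ratio of -0.08 (adjusted p = 0.604). The claudins Cldn3 (-0.77) and Cldn4 (-0.55) were lower. At an unadjusted p under 0.05 in limma there were 4 of the 8, beside 4954 of all 21316 genes. These were Cldn3, Cldn4 and, with positive ratios, the keratins Krt19 (0.46, adjusted p = 0.0917) and Krt8 (0.23, adjusted p = 0.203). The linear sum of the 8 was 246984 and 243840 in the NOGGIN-labelled channel, against 231052 and 255002 in the control-labelled channel, so the summed level overlapped between conditions. In such tissue RNA, fewer cells of a type and less RNA per cell cannot be told apart.

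The type II cadherins, 12 of 13 measured, gave 1 call, beside 7.99% of all genes called. Cdh18, a type II cadherin best known from the nervous system (chromosome 15), had 8.88 and 8.93 in the NOGGIN-labelled channel, against 7.77 and 7.50 in the control-labelled channel. The gap between conditions was several times the spread within either one. Its log2 ratio of 1.27 ± 0.22 was a 2.41-fold difference (adjusted p = 0.0058), second in size only to Cdh3 among the members in the main setting. The order of these genes depended on the processing. On the scanner's processed signals Cdh18 had 1.761 and Cdh3 -1.6, and on the authors' deposited values Cdh18 was also the larger in size. Of 6 neuronal markers 1 was higher, Stmn2 at 0.70 (adjusted p = 0.0113). Their sum was 33996 and 31309 in the NOGGIN-labelled channel, against 28612 and 26427 in the control-labelled channel. The part of neuronal RNA in the Cdh18 difference was not tested.

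Several type II members had ratios away from 0 that did not pass the threshold. Cdh5, VE-cadherin of endothelial junctions, had 12.85 and 12.81 in the NOGGIN-labelled channel, against 12.41 and 12.56 in the control-labelled channel, a log2 ratio of 0.34 ± 0.13 (adjusted p = 0.0796). None of 8 endothelial markers passed limma's adjusted threshold (1 at an unadjusted p under 0.05). All 8 had mean log2 ratios above 0, from 0.003 for Esam to 0.25 for Emcn. Their sum was 39191 and 45561 in the NOGGIN-labelled channel, against 37824 and 40506 in the control-labelled channel, so the summed level overlapped between conditions. Cdh11, OB-cadherin, a mesenchymal cadherin, had 14.74 and 14.41 in the NOGGIN-labelled channel, against 14.81 and 14.96 in the control-labelled channel. Its arrays differed, at -0.07 on replicate 1 and -0.55 on replicate 2 (adjusted p = 0.233). Cdh6, K-cadherin of the early nephron, had 12.11 and 11.97 in the NOGGIN-labelled channel and 12.09 and 11.74 in the control-labelled channel, with overlap and an adjusted p of 0.471. The lowest type II ratio was that of Cdh9 at -0.40 (adjusted p = 0.0827), and the median of the 12 was -0.00063.

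Of the 5 other cadherins on the array 3 were measured and none passed in limma, with 1 at an unadjusted p under 0.05. Cdh13, T-cadherin, which is held in the membrane by a lipid anchor instead of a cytoplasmic tail, had 10.17 and 9.88 in the NOGGIN-labelled channel, against 10.46 and 10.32 in the control-labelled channel. Its channels did not overlap, and its log2 ratio was -0.37 ± 0.11 with an adjusted p of 0.059, and of 0.047 when dim genes were also tested. Cdh16, the kidney-specific Ksp-cadherin of tubule epithelium, had 15.97 and 15.66 in the NOGGIN-labelled channel, against 16.00 and 15.97 in the control-labelled channel (adjusted p = 0.37). Cdh26 was near 0 on average, with 0.07 on replicate 1 and -0.07 on replicate 2.

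**Figure D2:**
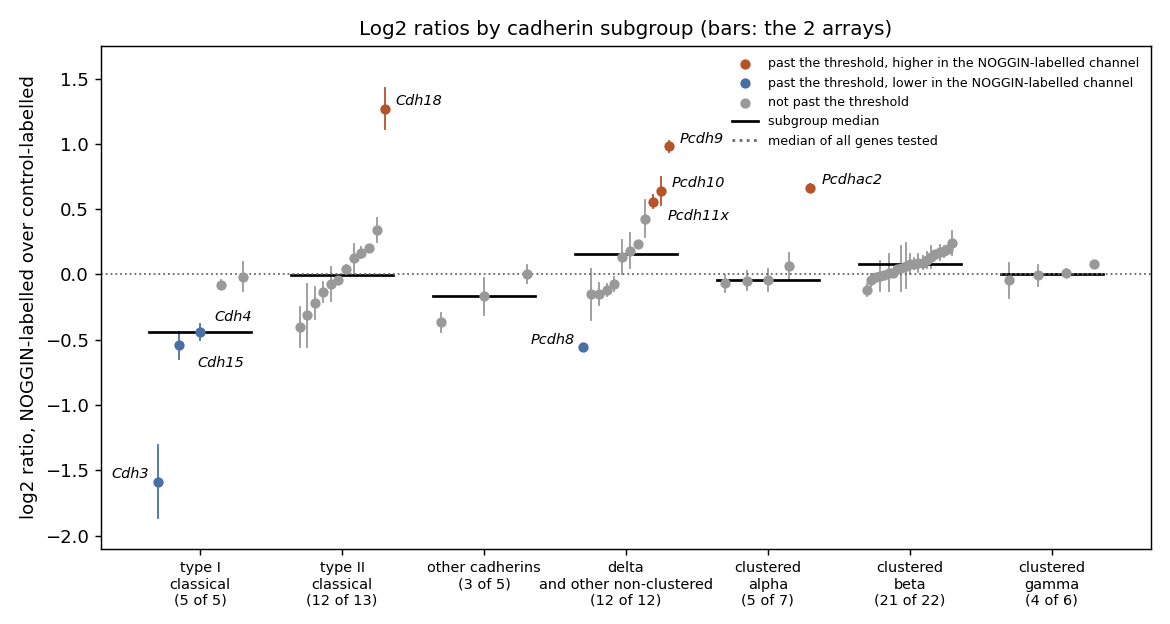
Log2 ratio, NOGGIN-labelled over control-labelled (vertical axis), of the 62 members by subgroup, with the points at the mean and thin bars running between the 2 arrays. The called type I members lie below 0 and the called non-clustered protocadherins lie above it except Pcdh8, while the 21 beta protocadherins sit between -0.12 and 0.24.

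All 12 non-clustered protocadherins were measured, with 3 higher and 1 lower in the NOGGIN-labelled channel, beside 3.95% and 4.04% of all genes. Pcdh9, a delta-1 protocadherin (chromosome 14), had 10.48 and 10.67 in the NOGGIN-labelled channel, against 9.55 and 9.65 in the control-labelled channel. Its log2 ratio was 0.98 ± 0.06, a 1.97-fold difference (adjusted p = 0.00538). Pcdh10, a delta-2 protocadherin also called OL-protocadherin (chromosome 3), had 11.07 and 11.25 in the NOGGIN-labelled channel, against 10.54 and 10.50 in the control-labelled channel. For Pcdh10 the log2 ratio was 0.64 ± 0.15 (adjusted p = 0.0186). The channels of both genes were clearly apart on both arrays.

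Pcdh11x, a delta-1 protocadherin of the X chromosome, was dim, with 7.54 and 7.74 in the NOGGIN-labelled channel, against 7.03 and 7.14 in the control-labelled channel. Its log2 ratio was 0.56 ± 0.07 (adjusted p = 0.0187), and it was 1.11 both on the scanner's processed signals and on the authors' deposited values. In the control-labelled channel of replicate 1, 0.75 of its spots were well above background, and a further probe of the gene did not pass the filter. Pcdh8, a delta-2 protocadherin known as paraxial protocadherin for its part in cell movement and somite formation, ran the other way. It had 12.72 and 12.77 in the NOGGIN-labelled channel, against 13.25 and 13.36 in the control-labelled channel. The replicates lay close together, and the log2 ratio was -0.56 ± 0.04 (adjusted p = 0.0174).

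The remaining non-clustered members did not pass. Pcdh19, a delta-2 protocadherin whose gene is mutated in a human epilepsy, had 12.54 and 12.82 in the NOGGIN-labelled channel, against 12.25 and 12.25 in the control-labelled channel, a log2 ratio of 0.43 ± 0.20 (adjusted p = 0.0645). Pcdh18, a delta-2 protocadherin, had 14.64 and 14.57 in the NOGGIN-labelled channel, against 14.66 and 14.70 in the control-labelled channel, with an interval of -0.27 to 0.12 (adjusted p = 0.647). The rest lay between -0.15 for Pcdh20 and 0.23 for Pcdh12.

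The promoters of the called members are printed to show the sequence around the start of genes that ran in opposite directions. Promoter windows of 5 of the 9 were taken from RefSeq's promoter table (GRCm38.p6, 250 bases before to 50 after the start). No window was taken for Cdh3, Cdh4, Pcdh11x and Pcdhac2, which does not show that the table lacks them. The motifs searched, on both strands, were GGCGCC, a GC-rich element bound by SMADs of the BMP pathway, CAGAC or its complement GTCTG, a SMAD box, and CACCTG or its complement CAGGTG, an E-box bound by SNAI and ZEB repressors. Capitals mark matches, which did not overlap each other. The windows are, for Cdh18, chr15:23036213-23036512 (plus strand), Pcdh9 chr14:93890630-93890929 (minus, the first of its entries), Pcdh10 chr3:45378148-45378447 (plus), Pcdh8 chr14:79771263-79771562 (minus) and Cdh15 chr8:122848124-122848423 (plus).
Cdh18: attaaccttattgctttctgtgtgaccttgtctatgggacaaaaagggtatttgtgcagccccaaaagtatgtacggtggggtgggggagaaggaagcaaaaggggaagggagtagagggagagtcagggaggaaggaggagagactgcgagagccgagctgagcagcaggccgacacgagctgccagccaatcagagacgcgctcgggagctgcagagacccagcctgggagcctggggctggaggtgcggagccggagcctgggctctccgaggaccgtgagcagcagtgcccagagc
Pcdh9: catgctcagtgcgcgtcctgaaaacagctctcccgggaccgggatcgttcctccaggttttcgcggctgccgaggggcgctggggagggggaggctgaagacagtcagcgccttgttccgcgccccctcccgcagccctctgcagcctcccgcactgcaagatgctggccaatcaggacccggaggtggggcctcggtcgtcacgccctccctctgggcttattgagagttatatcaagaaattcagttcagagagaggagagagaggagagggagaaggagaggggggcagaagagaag
Pcdh10: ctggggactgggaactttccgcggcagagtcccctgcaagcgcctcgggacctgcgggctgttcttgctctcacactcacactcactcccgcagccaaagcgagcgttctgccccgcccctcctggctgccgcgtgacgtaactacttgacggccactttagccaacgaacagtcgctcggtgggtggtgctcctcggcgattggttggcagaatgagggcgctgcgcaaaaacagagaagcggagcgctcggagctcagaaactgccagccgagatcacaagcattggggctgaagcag
Pcdh8: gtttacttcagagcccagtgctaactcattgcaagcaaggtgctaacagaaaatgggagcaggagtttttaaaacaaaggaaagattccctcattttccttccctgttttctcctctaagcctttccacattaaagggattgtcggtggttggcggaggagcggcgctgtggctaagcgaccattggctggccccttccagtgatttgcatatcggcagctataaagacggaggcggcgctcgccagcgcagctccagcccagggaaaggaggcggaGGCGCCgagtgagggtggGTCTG
Cdh15: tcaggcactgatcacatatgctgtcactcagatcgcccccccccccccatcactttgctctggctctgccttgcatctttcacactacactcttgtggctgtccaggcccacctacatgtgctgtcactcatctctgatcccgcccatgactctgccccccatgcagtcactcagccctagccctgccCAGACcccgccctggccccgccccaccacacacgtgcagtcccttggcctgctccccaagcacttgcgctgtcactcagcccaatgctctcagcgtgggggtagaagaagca

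The 3 promoters of genes higher in the NOGGIN-labelled channel held none of the motifs. That of Pcdh8 held GGCGCC 27 bases after the start and GTCTG 45 bases after it, and that of Cdh15 held CAGAC 62 bases before the start (position -62). CACCTG was in none of the 5. Among all 32851 promoters of the table, GGCGCC was in 11.9%, CAGAC or GTCTG in 49.6% and CACCTG or CAGGTG in 20.2%. Promoters of 20 tested members were taken from the table, any of their entries counting and chromosome 18 not being skipped. Among these 20, GGCGCC was in 2, CAGAC or GTCTG in 12 and CACCTG or CAGGTG in 2. A match is a run of letters and not a bound site, and the lack of one says only that those letters are not in this window.

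The clustered protocadherins, 30 of 35 measured, gave 1 call, beside 7.99% of all genes called. Pcdhac2, a C-type member at the end of the alpha cluster, had 11.03 and 10.98 in the NOGGIN-labelled channel, against 10.40 and 10.28 in the control-labelled channel. Its log2 ratio was 0.66 ± 0.05, a 1.58-fold difference (adjusted p = 0.0113), and the conditions were apart on both arrays. The other 4 alpha members lay between -0.07 for Pcdha9 and 0.06 for Pcdha4. Transcripts of the alpha cluster share constant last exons, as do those of the gamma cluster, so a probe in such exons would not separate the members. Where each probe lies was not examined.

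The beta protocadherins, whose genes are single exons, were 21 of 22 measured, and none passed limma's adjusted threshold. At an unadjusted p under 0.05 there were 2 of them, beside 4954 of all 21316 genes. Their log2 ratios ran only from -0.12 for Pcdhb9 to 0.24 for Pcdhb16, with a median of 0.08, and the smallest adjusted p was 0.171. Of the 21, 20 lay within 0.2 of 0, beside 15915 of all 21316 genes. For 8 of them the arrays gave opposite signs, beside 7089 of all 21316 genes. The gamma members, 4 of 6 measured, gave no call (0 at an unadjusted p under 0.05 in limma). On the probe used for each gene they had a median of 0.0041 and ended at Pcdhga1 with -0.04 and Pcdhga5 with 0.08. A second, dimmer probe of Pcdhga9 lay outside that range, at -0.22.

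As groups, the 17 classical cadherins (type I and II) had a median log2 ratio of -0.07, with 1 called higher and 3 lower. The 42 protocadherins had a median of 0.06, with 4 called higher and 1 lower. The median of all genes tested was 0.00084. By array the medians were -0.05 on replicate 1 and -0.11 on replicate 2 for the classical cadherins, and 0.04 and 0.11 for the protocadherins. Opposite signs on the arrays were found for 18 of the 62 members, beside 7089 of all 21316 genes.

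**Figure D3:**
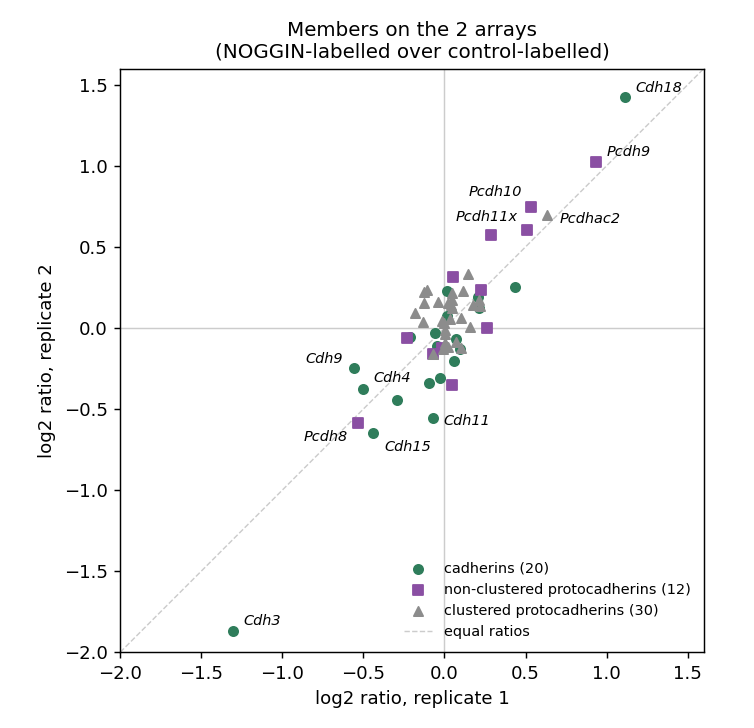
Log2 ratio on replicate 2 (vertical axis) against replicate 1 (horizontal axis), NOGGIN-labelled over control-labelled, 1 point per member. The 9 called members lie near the diagonal, with Cdh3 at -1.30 and -1.87 and Cdh18 at 1.11 and 1.42, while most others gather around 0.

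Some members had several kept probes, and these did not always give 1 size. A gene's value is otherwise that of its brightest probe. Pcdh9 had 3 probes at log2 ratios of 0.98, 0.65 and 0.36, all higher in the NOGGIN-labelled channel, of which the third did not pass (adjusted p over all probes of 0.0633). Pcdh10 had a second, dimmer probe at 0.24 (adjusted p = 0.133), beside 0.64 for the brighter one. Pcdh7, a delta-1 protocadherin, was not called from its brightest probe, at 0.13 (adjusted p = 0.466), which had 11.70 and 11.44 in the NOGGIN-labelled channel and 11.44 and 11.44 in the control-labelled channel. Its second probe had 11.01 and 10.94 in the NOGGIN-labelled channel, against 10.18 and 10.37 in the control-labelled channel, a log2 ratio of 0.70 ± 0.18 (adjusted p over all probes of 0.0148). Another kept Pcdh7 probe, assigned to the same RefSeq transcript as the second, had a log2 ratio of 0.17 (adjusted p over all probes of 0.247), so probes of that transcript disagreed. The probe used for Pcdhga9 was very bright, with 16.00 and 15.90 in the NOGGIN-labelled channel and 15.92 and 15.99 in the control-labelled channel. Its second probe had 9.95 and 9.97 against 10.13 and 10.24, a log2 ratio of -0.22 (adjusted p over all probes of 0.154 in limma). Probes of Pcdhac2 (0.66 and 0.53), Cdh4 (-0.44 and -0.41) and Cdh11 (-0.31 and -0.29) stood close together.

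**Figure D4:**
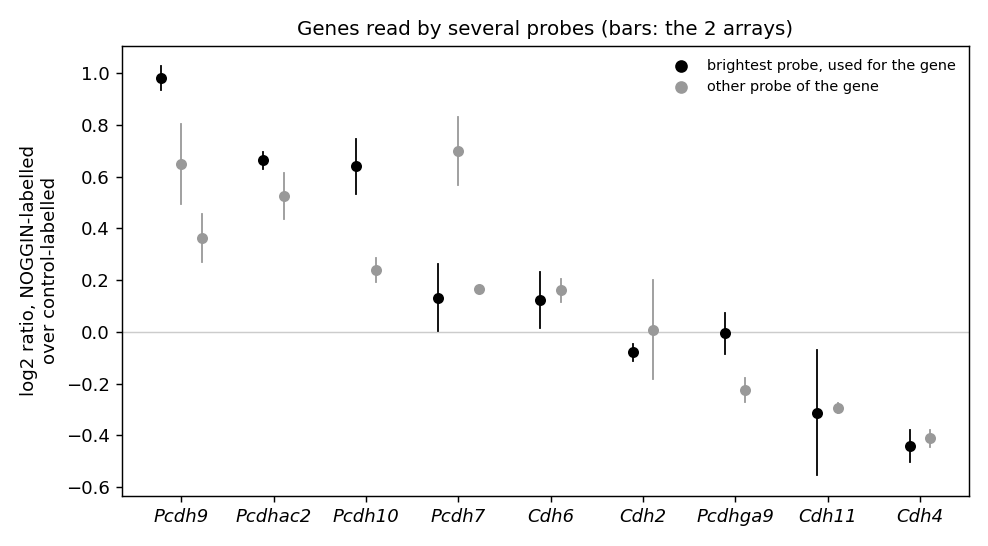
Log2 ratio of every kept probe, NOGGIN-labelled over control-labelled (vertical axis), for the members with more than 1 kept probe, with thin bars between the 2 arrays. The Pcdh7 probes lie at 0.13, 0.70 and 0.17, and those of Pcdh9 at 0.98, 0.65 and 0.36.

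The genes of catenins and their partners gave no call. None of 15 catenins and armadillo partners measured passed limma's adjusted threshold, and their median was -0.03. At an unadjusted p under 0.05 there were 4 of the 15, beside 4954 of all 21316 genes. Ctnnb1, beta-catenin, was at 0.23 ± 0.27 (adjusted p = 0.303) and Ctnna1, alpha-catenin, at 0.11 ± 0.14 (adjusted p = 0.496). None of 5 desmosomal genes measured passed, and 0 had an unadjusted p under 0.05 in limma. Of 6 nectins and nectin-like genes, which start adhesion beside cadherins, Nectin2 was lower at -0.40 ± 0.11 (adjusted p = 0.048), with a list median of -0.21.

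Among 13 atypical and large cadherins measured, 1 passed in each direction. Clstn2, a calsyntenin of synapses, had 14.44 and 14.29 in the NOGGIN-labelled channel, against 13.37 and 13.21 in the control-labelled channel, a log2 ratio of 1.07 with both arrays nearly equal (adjusted p = 0.00432). Fat3, a giant cadherin of the FAT family, was lower at -0.77 ± 0.13 (adjusted p = 0.0106). Of 11 proteases and turnover factors, Adam10, which sheds the outer part of E- and N-cadherin, was higher at 0.53 ± 0.14 (adjusted p = 0.0279).

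Of 13 transcription factors known to act on cadherin genes, 3 were higher and 2 lower in the NOGGIN-labelled channel. Of all genes, 3.95% were higher and 4.04% lower. At an unadjusted p under 0.05 in limma there were 7 of the 13, beside 4954 of all 21316 genes. Snai1, a repressor of Cdh1, had 13.34 and 13.10 in the NOGGIN-labelled channel, against 11.92 and 11.53 in the control-labelled channel, a log2 ratio of 1.49 ± 0.10 (adjusted p = 0.00336). Zeb2, another repressor of Cdh1, was higher at 0.96 ± 0.14 (adjusted p = 0.00687). Ovol1, an epithelial factor, was also higher, at 0.62 ± 0.13 (adjusted p = 0.0186). Twist2, a mesenchymal factor, was lower at -0.61 ± 0.09 (adjusted p = 0.0165), as was Klf4, also an epithelial factor, at -0.52 ± 0.13 (adjusted p = 0.0275), which was named after its values were seen. Cdh1 had overlapping channels and a ratio near 0, and its relation to these factors was not tested.

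Markers of the other cells in the ureter moved as follows beside the cadherins. Of 8 ureteric mesenchyme and smooth muscle genes, Acta2 (-1.16), Tagln (-1.09), Cnn1 (-0.93) and Myh11 (-0.91) were lower and Tbx18 (1.25) higher in the NOGGIN-labelled channel. The others did not pass in limma: Pdgfra (-0.25, adjusted p = 0.32), Pdgfrb (-0.09, adjusted p = 0.522) and Col1a1 (-0.27, adjusted p = 0.181). The linear sum of the 8 was 449668 and 489174 in the NOGGIN-labelled channel, against 742938 and 745865 in the control-labelled channel, with no overlap. This sum weighs the brightest genes most, so it does not describe each gene of the list. Of 5 nephron genes, Lhx1 (-0.75) and Wt1 (-0.81) were lower. Of 4 Schwann and neural crest genes measured, Foxd3 was lower at -0.56 (adjusted p = 0.0479). None of 5 macrophage genes passed limma's adjusted threshold, and 3 had an unadjusted p under 0.05, beside 4954 of all 21316 genes. All marker genes of epithelium, endothelium, neurons, macrophages and nephron were above the filter, and their part in the cadherin differences was not tested.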

How the data were processed

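RNA of 2 treated and 2 control ureter samples was hybridised to 2 dual-colour Agilent arrays. The submitters' processing notes name Agilent Feature Extraction, version 10.7.3.1. The deposited scanner files give spot intensity and background intensity on a linear scale per the file headers, and a log10 ratio that was not used for the main result. The authors' deposited table gives signed fold changes per array, and how it was made is not given in those sources. Their sign is opposite to the labels. From the intensities, normexp (offset 50) and loess within each array were applied with limma 3.58.1 in R 4.3.3, with control, filler and outlier spots given no weight in the loess. Spots were averaged per probe, probes had to be well above background in over 0.5 of their spots on both arrays in at least 1 condition, and the brightest probe stood for a gene. The mean log2 intensities of the 2 channels were put on a common distribution across the arrays. Channel values were then rebuilt from these means and the log2 ratios. The mean ratio of each gene was set against 0 in limma's moderated test (residual df 1, prior df 4.13), p-values being Benjamini-Hochberg adjusted over 21316 genes, on code tested on simulated data. Of the gene probes 28313 had a symbol. The 11095 without one were kept under the array's own identifier, count as genes in all totals, and were tested where they passed the filter. A further 21 with all spots flagged were left out. Members, lists and named genes (each member past the threshold or 1.5-fold on both arrays, plus 13 named by symbol) were chosen with earlier results of these data known.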

Additional observations from a re-analysis of the deposited data

How the results depend on the processing

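All 9 called members kept their direction in each of the 11 alternatives fitted on both arrays, and on each array alone. All 9 also stayed past the threshold with the scanner's processed signals, normexp without offset, no filter on dim probes, a stricter filter, outlier spots kept, the mean of a gene's probes, a separate-channel model, and the filler probe in the loess curve, the last chosen after seeing the data. Median centring in place of loess gave 0 higher members, 0 lower members and 0 calls over all genes in limma (14 members and 3568 genes at an unadjusted p under 0.05, smallest adjusted p 0.0869). The cause was not tested. With a trended, robust variance 3 members were higher, 1 was lower and 594 genes were called. Cdh18, Pcdh9, Pcdhac2 and Cdh3 were still past the threshold. On the authors' deposited values 8 of the 9 remained. An adjusted p of 0.1 gave 2698 calls. The count of members changed 1.5-fold was 2 with the mean of a gene's probes. With 1 array left out the criterion is looser, since it asks for the change on 1 array only. The count was then 4 without replicate 2 and 7 without replicate 1. Cdh1, at -0.13 without replicate 1, turned to 0.094 without replicate 2. Of all values of single named members, 230 were the same, 15 weaker, 1 stronger (Cdh13) and 1 turned round. The main test is itself paired, since it sets the ratio within each array against 0 (residual df 1).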
